A study of Mus musculus with 9 samples.

Results

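The 8 genes described here are 5 matrix metalloproteinases (Mmp8, Mmp9, Mmp12, Mmp13 and Mmp14), a pair of tissue inhibitors of metalloproteinases (Timp1 and Timp2) and the membrane-bound protease Adam8. They were chosen by name, with earlier results of these data known. Every array probe set annotated to these symbols was included. This made 15 of the 22690 probe sets and 8 of the 12394 genes with a probe set annotated to a single symbol. All 8 genes reached a log2 value of 6, the level filter used throughout, on at least 1 array, as did 10032 of the 12394 genes. Of their probe sets 14 reached it. The remaining Timp2 probe set, 1437081_at, stayed between 5.07 and 5.63 (log2) and is only noted.

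The cells were peritoneal macrophages of mice injected with thioglycollate, an irritant broth that draws macrophages into the peritoneal cavity. They came from wild-type mice, from MyD88 knockout mice (MyD88 KO) and from TRIF knockout mice (TRIF KO). MyD88 and TRIF are the adaptor proteins through which Toll-like receptor 4, the receptor of bacterial lipopolysaccharide (LPS), passes on its signal. Cells of each genotype were left unstimulated (0 h) or were given 100 ng/ml LPS for 1 h or for 4 h. Each of these 9 groups was measured on 1 Affymetrix array, and no group had a replicate array. The mouse strain, age and sex, the alleles, and how many mice gave the cells of a group are not stated in the labels. The comparisons ask what LPS did to each gene over time, how its level differed without either adaptor, and how far the response was kept without it.

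Matrix metalloproteinases are zinc proteases that cut collagens, elastin, other matrix proteins, and also cytokines and cell surface proteins. Most are secreted as latent proenzymes, so their mRNA says nothing of how much enzyme is active. The tissue inhibitors bind the active site. Macrophages use these enzymes to cross basement membranes and to remodel inflamed tissue, and LPS is a known inducer of several of them. Many of their promoters hold sites for AP-1 (Fos and Jun proteins) and for ETS factors of the PEA3 type.

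The promoters of 3 of the genes that moved, and of a collagenase gene that was not called, are shown because these are the sequences on which such factors would act. RefSeq sequences (GRCm38.p6) from 250 bases before to 50 bases after the transcription start were found for 7 of the 8 genes. They made 8 windows, since Mmp12 has more than 1 listed start. No window was found for Mmp9, which was therefore not searched for motifs. The windows below are all on the plus strand. They lie at chr14:54431348-54431647 (Mmp14, largest rise after LPS), chrX:20869916-20870215 (Timp1, a small rise), chr9:7558179-7558478 (Mmp8, a fall) and chr9:7272264-7272563 (Mmp13, no call). Capitals mark matches to TGANTCA (AP-1), AGGAAG (PEA3 type) and GGGCGG (GC box) on either strand.
Mmp14: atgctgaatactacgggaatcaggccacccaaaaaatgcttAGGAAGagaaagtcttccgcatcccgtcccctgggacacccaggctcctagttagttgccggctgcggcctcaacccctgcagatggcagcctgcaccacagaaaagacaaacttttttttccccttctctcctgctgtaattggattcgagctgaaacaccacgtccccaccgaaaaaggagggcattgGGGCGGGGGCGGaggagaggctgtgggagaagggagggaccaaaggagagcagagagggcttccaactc
Timp1: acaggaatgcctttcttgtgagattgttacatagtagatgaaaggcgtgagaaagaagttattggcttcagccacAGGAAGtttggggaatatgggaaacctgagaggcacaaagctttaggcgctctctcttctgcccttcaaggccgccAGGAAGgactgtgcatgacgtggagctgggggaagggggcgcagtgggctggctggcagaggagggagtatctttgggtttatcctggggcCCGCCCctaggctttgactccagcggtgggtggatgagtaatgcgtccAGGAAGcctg
Mmp8: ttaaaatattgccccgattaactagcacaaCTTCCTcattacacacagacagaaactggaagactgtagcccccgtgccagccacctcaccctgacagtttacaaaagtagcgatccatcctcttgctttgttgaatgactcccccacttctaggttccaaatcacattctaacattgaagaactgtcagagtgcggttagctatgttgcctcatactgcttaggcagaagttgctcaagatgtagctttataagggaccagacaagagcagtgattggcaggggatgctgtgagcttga
Mmp13: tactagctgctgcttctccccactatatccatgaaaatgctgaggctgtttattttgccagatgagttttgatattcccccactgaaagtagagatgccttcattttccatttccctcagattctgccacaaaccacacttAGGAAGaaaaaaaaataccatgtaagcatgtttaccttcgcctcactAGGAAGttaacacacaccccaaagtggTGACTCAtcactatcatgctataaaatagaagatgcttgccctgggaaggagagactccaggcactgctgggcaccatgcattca

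The Mmp14 window held an AGGAAG starting 209 bases before the start and GC boxes starting 19 and 13 bases before it, with no AP-1 match. The Timp1 window held AGGAAG starting 175 and 99 bases before the start and on base 41 after it, and a GC box on the other strand. Mmp8 had a single AGGAAG, on the minus strand. Mmp13 had an AP-1 match, TGACTCA, starting 35 bases before the start, and AGGAAG starting 109 and 62 bases before it. AP-1 matches occurred in 2 of the 7 genes, Mmp13 and Mmp12 at its second listed start, and in 7.81% of all 32851 promoter windows of that length. AGGAAG occurred in 5 of the 7 genes and in 35.4% of windows, and the GC box in 4 of the 7 and in 35.7%. The Adam8 window holds 1 of these GC boxes, and its listed start lies inside the span of the gene in RefSeq. An NF-kB consensus (matched on both strands) was found in Mmp12 alone among these 7 genes, Mmp9 not being searched, and in 8.46% of windows. The core of the interferon-stimulated response element was found in Mmp13 alone and in 3.44%. The AP-1 and AGGAAG matches in these windows did not overlap each other. A match describes letters in the window only.

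Values are log2 expression as deposited, made with RMA, so that 1 unit is a 2-fold difference. A level of a probe set is not comparable with the level of a different probe set, so levels are compared only within a gene. Array medians lay between 7.01 and 7.07, and arrays correlated over probe sets at 0.985 to 0.998. All 10 macrophage markers were above log2 8 on every array, with Cd68, Csf1r and Lyz2 above 13. Tests come from limma fitted to all 9 arrays with genotype and time as additive factors, so the 3 genotypes stand in for replicates of a time and the 3 times for replicates of a genotype. A gene is called where its two-sided p, adjusted by the Benjamini-Hochberg method over the 10032 genes, is under 0.05. Nothing in the labels says that arrays came from separate mice or cultures, so each p-value reflects the scatter among these 9 arrays alone, and that scatter may be technical. It also holds any difference between genotypes in the response to LPS, which the additive fit assumes to be absent. The error of a gene further borrows from the scatter of all genes. In RNA from a whole preparation, fewer cells of a type and less RNA per cell cannot be told apart.

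After 4 h of LPS, Mmp14, Mmp9 and Timp1 rose and Mmp8 and Adam8 fell, while Timp2, Mmp12 and Mmp13 were not called. Mmp14 rose by far the most of the 8, by 1.47 ± 0.0904 (log2, SE; 2.77-fold; adjusted p = 9.95e-07). Thus 5 of 8 genes were called at 4 h, 3 higher and 2 lower, where 11.7% of all genes tested were called, 4.62% higher and 7.13% lower. Since the 8 genes were chosen with earlier results of these data known, this count is a description and not a test. The median 4 h difference was 0.07 over the 8 genes and -0.02 over all genes tested. Of the 10 macrophage markers, Cd14 rose (0.70) and Mertk (-0.89) and Fcgr1 (-0.75) fell at 4 h, while 7 were not called. At 1 h none of the 8 member genes was called, where 0.289% of all genes were, all of them higher. Without adjustment, limma gave 1 gene of the 8, Mmp8 (-0.22), a p under 0.05 at 1 h, as it did 5.41% of all genes.

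**Figure D1:**
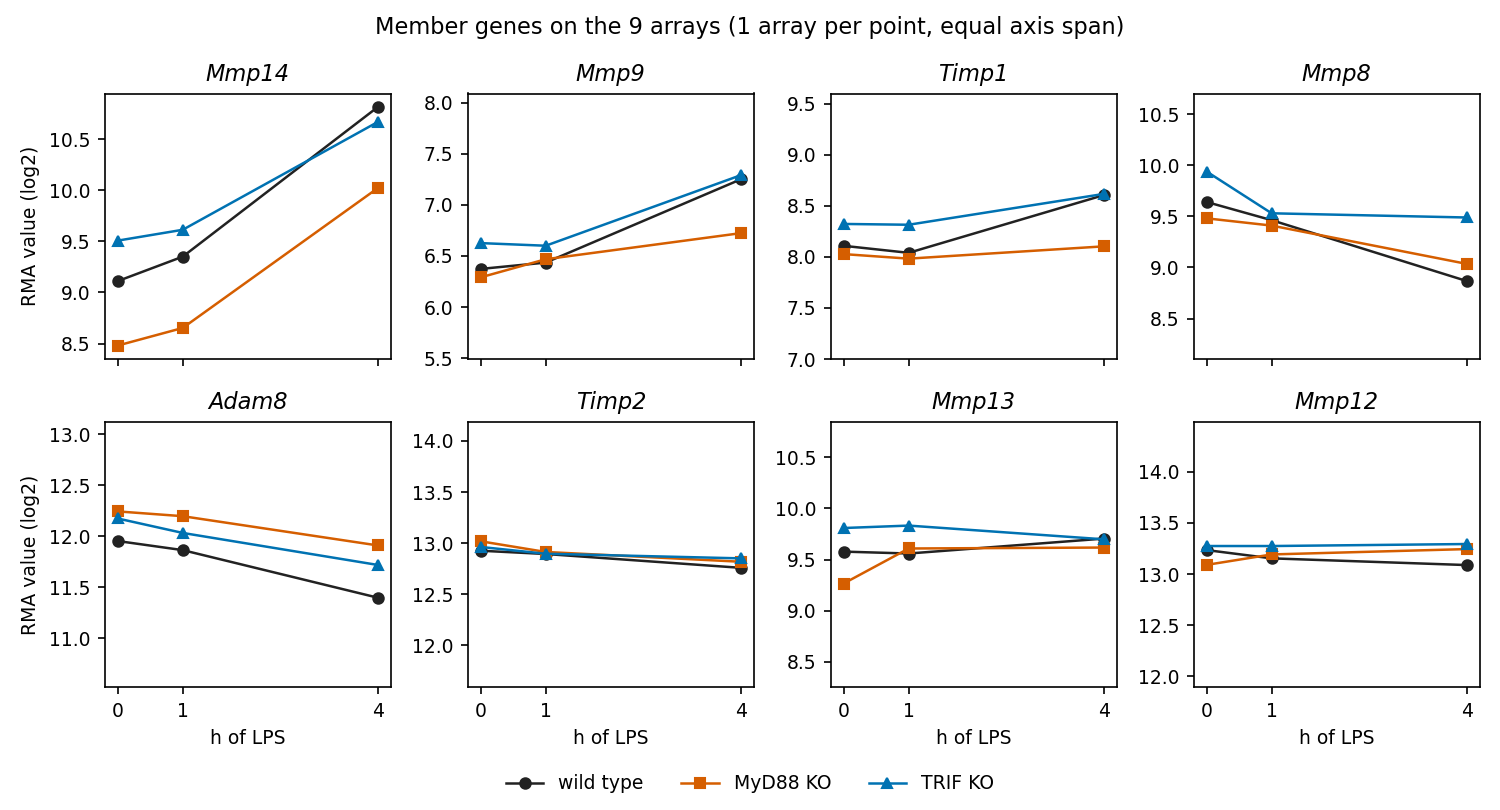
Log2 RMA value (vertical axis) of each of the 8 genes against hours of LPS (horizontal axis) in wild type, MyD88 KO and TRIF KO; each point is 1 array and each panel spans the same range of log2 units. Mmp14 climbs between 1 h and 4 h in all 3 genotypes with MyD88 KO lowest at each time, while Adam8 declines with wild type lowest at each time.

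Mmp14 encodes a membrane-anchored metalloproteinase that cuts collagen around the cell and activates the proenzyme of Mmp2. On the wild-type arrays its probe set 1448383_at read 9.11, 9.35 and 10.82 (log2) at 0, 1 and 4 h. In MyD88 KO the levels were 8.48, 8.65 and 10.02. In TRIF KO they were 9.51, 9.61 and 10.67. The 3 arrays at 4 h were all above the 3 at 0 h, as they were for 8.08% of all genes. Nearly all of the rise came after 1 h, since the 1 h differences were only 0.24 (wild type), 0.17 (MyD88 KO) and 0.11 (TRIF KO). The 4 h level was 3.26-fold the 0 h level in wild type, while MyD88 KO reached 2.91-fold and TRIF KO 2.24-fold. Mmp14 was the only gene of the 8 to move at least 2-fold within a genotype, and it did so in each of the 3. That size of rise at 4 h was reached by 1.23% of genes in wild type, by 0.429% without MyD88 and by 0.409% without TRIF. In the fit it ranked 26 of 10032 genes by the size of the 4 h difference.

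Mmp9 encodes gelatinase B, which cuts denatured collagen and basement membrane collagen. Its probe set 1416298_at read 6.37 (log2) in unstimulated wild type, 6.44 at 1 h and 7.25 at 4 h. In MyD88 KO it read 6.29, 6.47 and 6.72, and in TRIF KO 6.63, 6.60 and 7.29. The 4 h arrays lay above all 0 h arrays, but the MyD88 KO array at 4 h exceeded the TRIF KO array at 0 h only narrowly. These levels lie just above the filter of log2 6. The 4 h difference over genotypes was 0.66 ± 0.0939 (limma, adjusted p = 0.000682).

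Timp1 encodes a secreted inhibitor that also binds the Mmp9 proenzyme. The wild-type arrays gave 8.11 (log2) at 0 h, 8.04 at 1 h and 8.60 at 4 h. In the same order it read 8.03, 7.98 and 8.10 in MyD88 KO and 8.32, 8.31 and 8.62 in TRIF KO. The 4 h array of MyD88 KO was below the 0 h arrays of the other genotypes, so the times overlapped. The 4 h difference of 0.29 ± 0.0836 passed the threshold only just (limma, adjusted p = 0.0418). It lost the call in 10 of 21 other settings. Leaving out the wild-type 4 h array gave 0.18 (adjusted p = 0.271), the wild-type 0 h array 0.24 (0.165), and the TRIF KO arrays at 0, 1 and 4 h 0.28 (0.164), 0.29 (0.0715) and 0.29 (0.126).

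Mmp8, a collagenase best known from neutrophil granules, fell. Wild type gave 9.64 (log2) at 0 h, 9.46 at 1 h and 8.87 at 4 h. At the same times MyD88 KO gave 9.48, 9.41 and 9.04. In TRIF KO it read 9.94, 9.53 and 9.49, so most of the drop was already there at 1 h. The highest 4 h array, that of TRIF KO, just reached the lowest 0 h array, that of MyD88 KO. The 4 h difference was -0.56 ± 0.0934 (limma, adjusted p = 0.00192). Of 12 neutrophil markers, 10 had a probe set and 9 reached the filter, and 0 of these 9 were called at 4 h (limma), with 0 of 9 at an unadjusted p under 0.05. The mean log2 value of the neutrophil markers lay between 6.91 and 7.04 at 0 h and between 6.86 and 7.19 at 4 h. The highest value of any of these 10 was 9.23, and only S100a9 stayed under 6 on every array.

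Adam8 encodes a surface protease with a disintegrin domain that sheds adhesion molecules from leukocytes. Its wild-type levels were 11.95 (log2) at 0 h, 11.86 at 1 h and 11.40 at 4 h. The MyD88 KO levels were 12.24, 12.20 and 11.91, and the TRIF KO levels were 12.17, 12.03 and 11.72. The 3 arrays at 4 h were all below the 3 at 0 h, as for 15.2% of all genes. The difference over genotypes was -0.45 ± 0.0666 (limma, adjusted p = 0.000884).

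Timp2, the inhibitor that also links the Mmp2 proenzyme to Mmp14, moved little. Probe set 1460287_at read 12.93 (log2) at 0 h, 12.89 at 1 h and 12.76 at 4 h with both adaptors present, 13.02, 12.91 and 12.82 in MyD88 KO and 12.96, 12.90 and 12.85 in TRIF KO. Its 4 h difference of -0.16 (95% interval -0.29 to -0.03) missed the threshold (limma, adjusted p = 0.124). Mmp12, the macrophage elastase, stayed between 13.09 and 13.29 on all 9 arrays. Its 4 h difference was 0.01 (95% interval -0.14 to 0.16; adjusted p = 0.960). Mmp13, a collagenase, ranged from 9.27 in unstimulated MyD88 KO to 9.83 in TRIF KO at 1 h. Its 4 h difference was 0.12 (95% interval -0.07 to 0.31; adjusted p = 0.449), and its sign differed between genotypes, 0.13 (wild type), 0.35 (MyD88 KO) and -0.11 (TRIF KO).

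**Figure D2:**
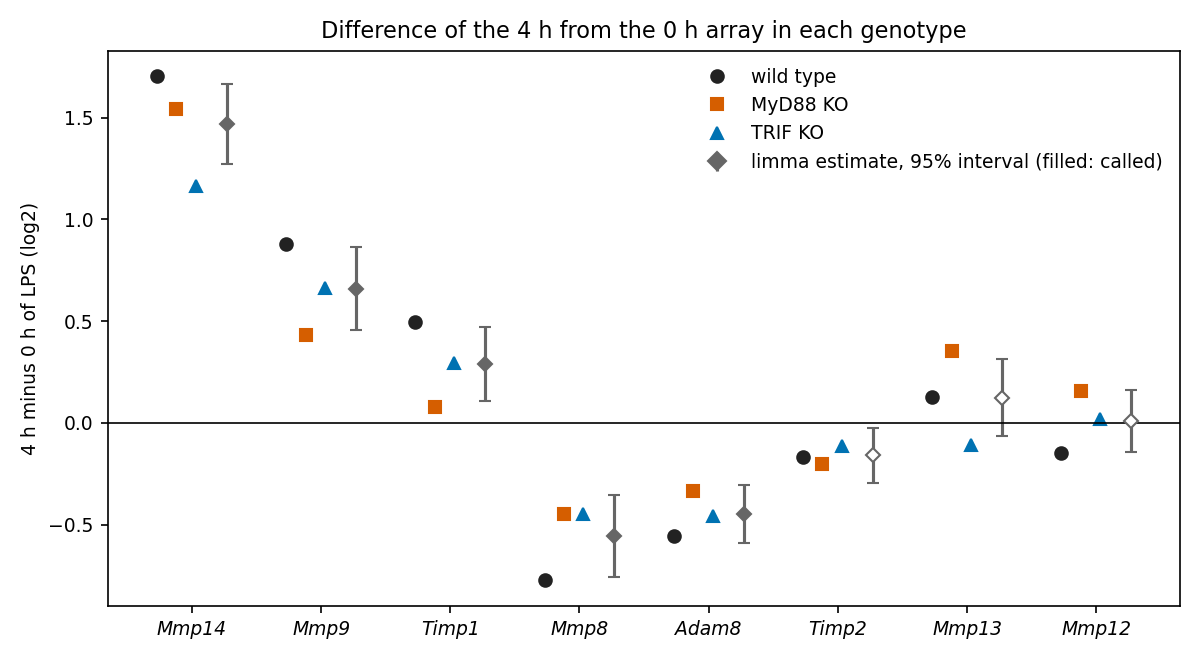
Difference in log2 value between the 4 h and the 0 h array (vertical axis) for each of the 8 genes, in wild type, MyD88 KO and TRIF KO; diamonds are the limma estimate over genotypes with its 95% interval, filled where called. The 3 genotypes of Mmp14 sit between 1.16 and 1.70, and those of Mmp8 and Adam8 are all below 0.

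Genes with several probe sets gave a second reading of the same RNA, though not an independent sample. When all 15313 probe sets above the filter were tested on their own, both Mmp14 probe sets were called higher at 4 h. The lower-reading probe set, 1416572_at, rose from 7.81 to 9.83 (log2) in wild type, from 7.25 to 8.58 without MyD88 and from 8.07 to 9.34 without TRIF. These are differences of 2.02, 1.33 and 1.28, against 1.70, 1.54 and 1.16 for 1448383_at. The probe sets thus both gave the rise in all 3 genotypes. TRIF KO had the smallest rise on 1448383_at, while on 1416572_at the knockouts lay close together (1.33 and 1.28). How far MyD88 KO fell short of wild type differed between the probe sets. Both Mmp9 probe sets were called higher, with estimates of 0.66 and 0.30. In the second, 1448291_at, the 4 h difference was 0.49 (wild type), 0.07 (MyD88 KO) and 0.35 (TRIF KO). Timp1 has a single probe set, which missed the threshold over all probe sets (0.29, limma adjusted p = 0.0517). Of 5 Timp2 probe sets above the filter 1 was called lower at 4 h (1454677_at, -0.24, adjusted p = 0.0379), and 1 was called higher in MyD88 KO than in wild type (1433662_s_at, 0.24, adjusted p = 0.0452).

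**Figure D3:**
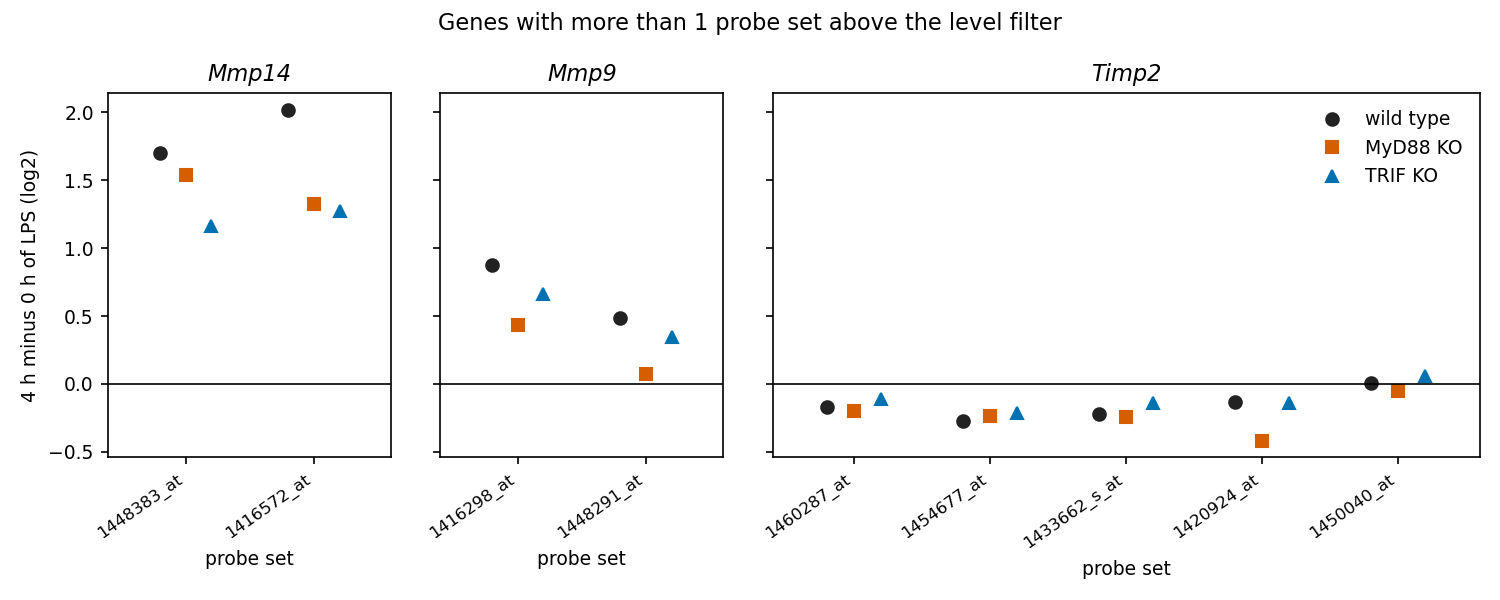
Difference in log2 value between the 4 h and the 0 h array (vertical axis) for each probe set above the filter (horizontal axis) of Mmp14, Mmp9 and Timp2 in wild type, MyD88 KO and TRIF KO; each point is a difference of 2 arrays. Both Mmp14 and both Mmp9 probe sets lie above 0 in all 3 genotypes, and the Timp2 probe sets lie near or below 0.

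Over the 3 times, cells without MyD88 had less Mmp14 and more Adam8 than wild type. The Mmp14 level differed by -0.63, -0.70 and -0.79 (log2) at 0, 1 and 4 h, so the arrays already stood apart before LPS. The estimate over times was -0.71 ± 0.0904 (limma, adjusted p = 0.000537). Adam8 was higher by 0.29, 0.33 and 0.51 at the same times, with an estimate of 0.38 ± 0.0666 (adjusted p = 0.00456). These were 2 of 8 genes called, 1 in each direction, where 7.24% of all genes were called, 4.56% higher and 2.68% lower. Timp1 (-0.21, adjusted p = 0.164) and Mmp9 (-0.19, adjusted p = 0.276) were not called. Their values differed by -0.08 and -0.08 at 0 h and by -0.50 and -0.53 at 4 h.

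The size of the MyD88 differences depends on how arrays are scaled. Centring the arrays on 12 reference transcripts lowered the median of all genes by 0.12 for MyD88 KO against wild type. On that scale Mmp14 stayed lower and called, the Adam8 difference became 0.25 (limma, adjusted p = 0.0737) and Timp1 was called lower (-0.34, adjusted p = 0.0307). Over all genes the split turned from 457 higher and 269 lower to 128 higher and 798 lower.

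TRIF KO against wild type called none of the 8 genes, where limma called 1.59% of all genes, and 2 of the 8 had an unadjusted p under 0.05, as did 13.0% of all genes. All 8 estimates lay above 0, from 0.04 (Timp2) to 0.33 (Mmp8), and the 3 wild-type arrays behind them also served the MyD88 comparison. The Mmp8 estimate had a 95% interval of 0.13 to 0.53 (adjusted p = 0.130) and that of Adam8 one of 0.09 to 0.38 (0.24, adjusted p = 0.127). For Mmp14 the difference was 0.40 at 0 h, 0.26 at 1 h and -0.15 at 4 h. On its other probe set, 1416572_at, it was 0.26, 0.16 and -0.48, with an estimate of -0.02, so the sign of the estimate depended on the probe set.

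The knockouts were also compared with each other, with no wild-type array in the difference. Mmp14 was lower in MyD88 KO than in TRIF KO, with differences of -1.03, -0.96 and -0.65 (log2) at 0, 1 and 4 h and an estimate of -0.88 ± 0.0904 (limma, adjusted p = 0.000197). Timp1 was lower too, with differences of -0.30, -0.33 and -0.51 and an estimate of -0.38 ± 0.0836 (adjusted p = 0.0338). The call of Timp1 was lost in 8 of 18 other settings. It was lost without the TRIF KO array of any of the 3 times (adjusted p = 0.165, 0.215 and 0.134 without the 0, 1 and 4 h array) and without the MyD88 KO 1 h (0.0570) or 4 h array (0.219). Mmp9 and Mmp8 each had -0.34 and missed the threshold (adjusted p = 0.0913 and 0.0908). The other Mmp9 probe set, 1448291_at, was called lower in the test over all probe sets (-0.50, limma adjusted p = 0.00662). Mmp9, on the probe set used, and Mmp8 were both called without the wild-type 4 h array (limma adjusted p = 0.0349 and 0.0294). Both differences stayed at -0.34 there, and only their errors became smaller. Mmp9 was also called without the MyD88 KO 1 h array (0.0413) and Mmp8 also without the TRIF KO 1 h array (0.0445). Without the MyD88 KO 4 h array the Mmp9 difference shrank to -0.21 (adjusted p = 0.493), and without the TRIF KO 4 h array the Mmp8 difference shrank to -0.24 (0.512). So 2 of 8 genes were called, both lower in MyD88 KO, where 2.39% of all genes were called, 1.38% lower. Centring on the reference transcripts moved the median of all genes by -0.13 here, and 5 of the 8 genes were then called lower. Over all genes the split turned from 102 higher and 138 lower to 41 higher and 473 lower.

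**Figure D4:**
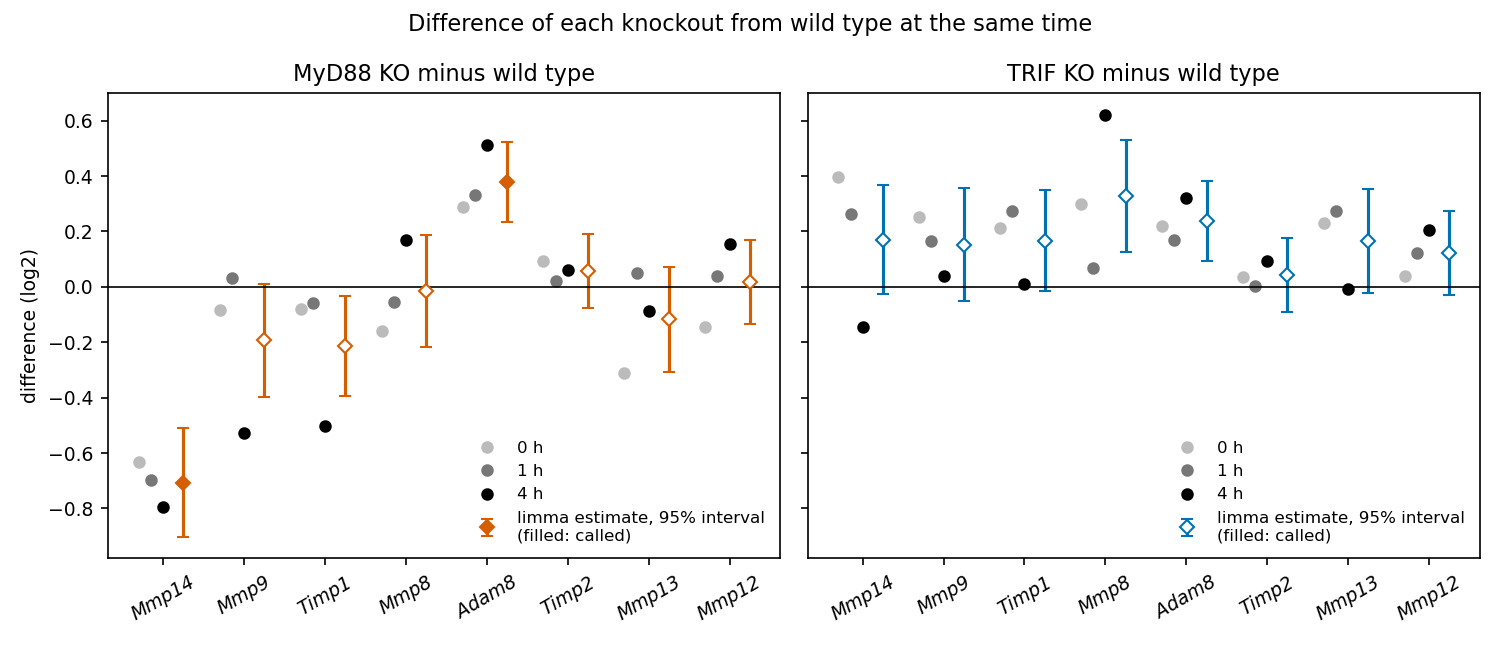
Difference in log2 value of MyD88 KO (left) and TRIF KO (right) from wild type at the same time (vertical axis) for each of the 8 genes; grey to black points are 0, 1 and 4 h, each a difference of 2 arrays, and diamonds are the limma estimate over times with its 95% interval, filled where called. In MyD88 KO the points of Mmp14 are all below -0.6 and those of Adam8 all above 0.2, and in TRIF KO no estimate is called.

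Some genes listed here as markers of other cells also differed between the genotypes, and which cells expressed them was not tested. Of 9 fibroblast markers tested, 4 were called higher and 1 lower in MyD88 KO, where 7.24% of all genes were called in either direction. Col3a1, a fibrillar collagen, was higher by 1.45 ± 0.104 and Dcn, a matrix proteoglycan, by 0.57 ± 0.0900, while Pdpn was lower (-0.77 ± 0.100). In TRIF KO, where 1.59% of all genes were called, 3 of the 9 were higher and Pdpn was below wild type (-1.31). The 3 were Col3a1 (1.02), Dcn (0.69) and Col1a2 (0.44). The mean log2 value of the fibroblast markers was 6.88 to 6.92 on the wild-type arrays, 7.12 to 7.17 on those of MyD88 KO and 6.96 to 7.13 on those of TRIF KO. In MyD88 KO 2 of 4 B cell markers and 1 of 9 neutrophil markers (Lcn2, -1.34) were called lower, 1 of 3 mesothelial markers was called higher, and of 10 macrophage markers 2 were called higher and 2 lower. In TRIF KO 2 of 4 B cell markers and Lcn2 (-0.72) were called lower, and 1 of 10 macrophage markers was called higher. Fibroblasts also make Mmp14, Timp1 and Timp2, and the part of any of these cells in the genotype differences was not tested. None of the 9 fibroblast markers was called at 4 h (limma), with 1 of 9 at an unadjusted p under 0.05.

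Whether the 4 h response itself differed without an adaptor was tested in a second limma fit, in which the 0 h and 1 h arrays of a genotype served together as its early state. Each 4 h array had no second array beside it and was assumed to vary like the early ones. A gene that already moved at 1 h gets a larger error in this fit. None of the 8 genes was called for MyD88 KO against wild type, where 0.389% of all genes were called, nor for TRIF KO against wild type (0.209%), nor between the knockouts (0.120%). At an unadjusted p under 0.05 there were 2, 1 and 0 of the 8 in the same order, where 6.23%, 4.11% and 1.87% of all genes were. Among the 8, the smallest p for MyD88 KO was that of Mmp9. Its response differed by -0.50 (95% interval -0.84 to -0.16; limma adjusted p = 0.411). The Timp1 response differed by -0.43 (95% interval -0.75 to -0.12; adjusted p = 0.492). For Mmp14 the difference was -0.13 (95% interval -0.51 to 0.26; adjusted p = 0.981) on the probe set used and -0.58 ± 0.213 (adjusted p = 0.658, over all probe sets) on the other. In TRIF KO the Mmp14 response differed by -0.48 (95% interval -0.86 to -0.09; adjusted p = 0.916) and by -0.69 ± 0.213 on the other probe set. A missed threshold here does not show that responses were alike, as the width of these intervals shows.

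Few other genes of the same protease system were called at 4 h, as was so for genes at large, of which 11.7% were called. Of 18 other matrix metalloproteinases listed, 13 had a probe set and 7 of these stayed under log2 6 on all arrays. None of the remaining 6 was called at 4 h, and none of 6 other metalloproteinase inhibitors was, with 1 and 0 at an unadjusted p under 0.05 (limma). Mmp2, which Mmp14 activates, stayed between 6.53 and 6.82 (log2). Among 15 other ADAM and ADAMTS proteases 1 was called, Adam17, the protease that releases TNF from the cell surface. It rose by 0.42 (adjusted p = 0.00345). Of 11 genes that activate latent metalloproteinases or belong to the plasminogen system 1 rose, Serpinb2, an inhibitor of plasminogen activators (1.73 ± 0.0869, limma adjusted p = 2.20e-07). Of 14 cathepsins 1 was called, and Ctse, an aspartic protease, fell (-0.36, adjusted p = 0.0216).

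Of 20 AP-1 and ETS transcription factors 5 rose and 1 fell at 4 h, where 11.7% of all genes were called in either direction. Maff rose by 1.14, Ets2 by 1.11 and Junb by 0.67, and Elf1 fell (-0.43). Junb, a Jun protein that forms AP-1, was the only gene of these lists called at 1 h (0.98). Its wild-type levels were 8.91 (log2) at 0 h, 10.15 at 1 h and 9.87 at 4 h, against 8.82, 9.44 and 9.32 in MyD88 KO. Ets2 read 8.55, 8.90 and 10.10 in wild type and 8.04, 8.33 and 8.93 in MyD88 KO. Of 14 substrates and surface partners 2 rose and 1 fell. Sdc4, a surface proteoglycan, rose by 1.13 and Cd44, the hyaluronan receptor that holds metalloproteinases at the cell surface, by 0.40, while Selplg, a selectin ligand shed by proteases, was lower (-0.32).

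**Figure D5:**
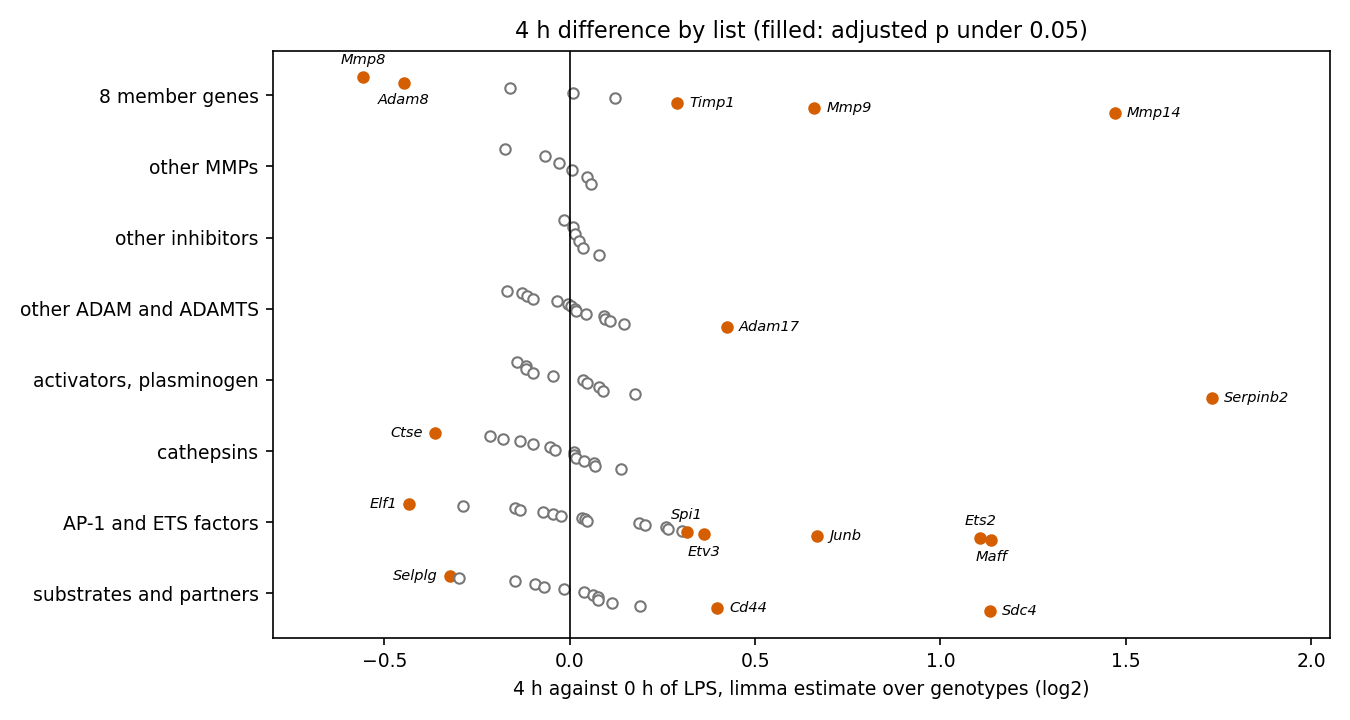
Limma estimate of the 4 h against 0 h difference over genotypes (log2, horizontal axis) for the 8 genes and for each list of related genes (rows); each point is a gene, filled and named where its adjusted p is under 0.05. Mmp14 and Serpinb2 lie farthest to the right, and no gene of the other metalloproteinases and inhibitors is called.

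Without MyD88, across the 3 times, 4 of 20 AP-1 and ETS factors were called lower and none higher, where 7.24% of all genes were called in either direction. They were Maff (-0.78), Ets2 (-0.75), Junb (-0.44) and Fosl2 (-0.26). Of 14 substrates and partners 3 were higher, Thbs1 (0.94), Lrp1 (0.47) and Selplg (0.26), and Sdc4 was lower (-0.70). Of 14 cathepsins Ctsk (0.41) and Ctsh (0.25) were higher and Ctse lower. Of 15 ADAM and ADAMTS proteases Adamts1 was higher (0.27) and Adam17 lower (-0.33). Of 11 activators and plasminogen genes Serpinb2 was lower (-0.59), of 6 other matrix metalloproteinases Mmp19 was higher (0.34), and none of 6 other inhibitors was called, with 0 at an unadjusted p under 0.05 (limma). Centring on the reference transcripts moved the median of all genes by -0.12 for MyD88 KO against wild type. The calls of these lists were not examined singly on that scale. Ctse was called lower both without MyD88 (-1.21) and without TRIF (-0.79). Plaur, the receptor of urokinase, was called higher without TRIF (0.38). Between the knockouts, Serpinb2 (-0.87), Ets2 (-0.70), Maff (-0.59) and Ctse (-0.43) were lower in MyD88 KO.

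On chromosome 9 the RefSeq order (GRCm38.p6) places Mmp13, Mmp12, Mmp1b, Mmp3, Mmp1a, Mmp10, Mmp8, Mmp27, Mmp20 and Mmp7 in a run of 10 coding genes. Of the 9 with a probe set, 5 reached log2 6 and 4 (Mmp1b, Mmp3, Mmp1a and Mmp20) did not. The 3 of the 8 genes in this run differed at 4 h, with Mmp8 called lower and Mmp12 and Mmp13 not called. Mmp10 and Mmp7 stayed between 7.34 and 7.59 and between 7.54 and 7.77 (log2). The genes that rose lie elsewhere, Mmp14 on chromosome 14, Mmp9 on chromosome 2 and Timp1 on chromosome X.

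Pearson correlations over the 9 arrays, which share the LPS time course, describe which of 367 genes above the filter that varied by at least 1 log2 unit were most like each member. They carry no p. For Mmp14 these were Relb, an NF-kB subunit (0.992), Birc3, an inhibitor of apoptosis (0.989), and Serpinb2 (0.989). Relb differed by 1.25, 1.54 and 1.06 (log2) between 0 and 4 h in wild type, MyD88 KO and TRIF KO. For Mmp9 they were Ednrb (0.972), Vasp (0.965) and Ift57 (0.962), and for Timp1 Cebpd (0.975), Plpp1 (0.958) and Pilra (0.946). Cebpd, a transcription factor of the acute phase response, differed by 1.04 (wild type), 0.27 (MyD88 KO) and 0.86 (TRIF KO) between 0 and 4 h. For Adam8 they were Pnpla7 (0.992), Dhcr7, an enzyme of cholesterol synthesis (0.989), and Gnpda1 (0.987). For Mmp8 they were Clec2i (0.936), Apobec1 (0.934) and Dbp (0.921), and for Timp2 Pla2g15 (0.933), Socs6 (0.918) and Pcmtd2 (0.911). Mmp12 and Mmp13 had no gene above 0.749 and 0.743. On the probe sets used, Mmp12 ranged over 0.21 (log2), Timp2 over 0.26 and Mmp13 over 0.57, so the Timp2 correlations rest on small differences. Among the 8 genes, Mmp9 and Mmp14 correlated at 0.939, Mmp9 and Timp1 at 0.914, and Timp2 and Adam8 at 0.879.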

How the data were processed

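RNA of 9 macrophage preparations, labelled with biotin per the labels, was measured on Affymetrix arrays, 1 per genotype and time. The authors deposited log2 expression values, for which the submitters' processing notes name RMA with no version. RMA subtracts background, equalises the quantiles of arrays and combines probes into 1 value per probe set. The 22690 probe sets were named from the platform annotation, with symbols updated by gene identifier through RefSeq (GRCm38.p6), and 20393 had a single symbol. A gene took its probe set with the highest mean, and 10032 genes at log2 6 or more on at least 1 array were tested.

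Fits used limma 3.58.1 (lmFit, eBayes without trend) in R 4.3.3. The additive fit of genotype and time had 4 residual and 8.39 prior degrees of freedom, the second fit 3 and 10.27. Both fits were first tested on simulated data with known answers, in which 100 of 10032 genes were changed. For 4 h and for MyD88 KO, 100% of changes of 0.5 (log2) were recovered, with 15 and 11 false calls. For the late response of MyD88 KO, 25% of changes of 0.5 and 97% of changes of 1 were recovered, with 7 false calls. In all of these comparisons false calls made up a larger share of the calls than the adjusted p threshold is meant to allow. These counts describe simulated data only, and the share of false calls among the real calls was not measured. Python 3.11.15 computed levels, correlations and motif matches. Named genes are the 8 members and all their probe sets, the 3 genes most correlated with each, and up to 4 called genes per list at 4 h. Called genes of the knockout comparisons and unchanged neighbours were named after their values were seen. The members and lists were chosen with earlier results of these data known. The number of arrays limits the precision. Other filters, scalings, probe set rules, eBayes options and left-out arrays were tried.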

Additional observations from a re-analysis of the deposited data

How the results depend on the processing

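The 64 member results were recomputed in 23 settings, which gave 1168 values, of which 24 lost a call and 11 gained one. The 9 called results kept their sign in all 176 of their values. For many of these the sign could not change. The eBayes options, the fit without the other factor and the level filters alter only the error or the set of genes. A left-out wild-type array likewise leaves the difference between the knockouts as it was. Of the 55 results not called, 11 took the other sign in 27 values in all, each with a main difference of at most 0.16 in size (log2). Mmp14 at 4 h stayed between 1.35 and 1.62 (adjusted p 1.25e-07 to 0.0321) and Mmp9 between 0.48 and 0.80 (2.31e-05 to 0.0390, in 20 settings, since a mean of at least log2 7 leaves it out). The 4 h calls of Mmp8 (adjusted p = 0.0761) and Adam8 (0.0967) were lost only in the fit without genotype, and the Mmp14 genotype calls only in the fit without time, whose error holds the other factor. Timp1 at 4 h ranged from 0.18 to 0.40 (adjusted p 0.00692 to 0.324) and lost its call in 10 of 21 settings. With an eBayes trend, Timp2 at 4 h (adjusted p = 0.0241) and Adam8 in TRIF KO (0.0484) were called. Averaging probe sets called Mmp9 lower in MyD88 KO than in TRIF KO (0.0284).

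Counts of called genes moved more. With low values raised to log2 6 there were 10 higher at 1 h (29 before), 178 lower in MyD88 KO (269), 72 higher and 24 lower in TRIF KO (118 and 42), and 50 higher and 73 lower in MyD88 KO against TRIF KO (102 and 138), with 1 of the 8 members there (2). Late responses called larger and smaller were 1 and 5 for MyD88 KO (12 and 27), 0 and 2 for TRIF KO (2 and 19) and 0 and 0 between knockouts (11 and 1). Centring on the reference transcripts gave 468 lower at 4 h (715), 128 higher and 798 lower in MyD88 KO (457 and 269), 73 higher in TRIF KO, and 41 higher and 473 lower between knockouts with 5 members. Late calls were then 2 and 4, 0 and 11, and 5 and 0. Without the other factor there were 1 higher at 1 h, 150 higher and 158 lower at 4 h (463 and 715) with 2 members (5), 72 higher and 23 lower in MyD88 KO with 0 members (2), 50 and 16 in TRIF KO, and 17 and 16 between knockouts with 0 members. A robust eBayes gave 18 higher at 1 h and late calls of 19 larger for MyD88 KO, 34 smaller for TRIF KO and 3 smaller between knockouts. A trend gave 1 member in TRIF KO and 0 late calls smaller between knockouts. Late calls were 2 and 7, 1 and 12, and 5 and 0 with a mean of at least log2 7. They were 7 and 15 for MyD88 KO and 1 larger for TRIF KO on averaged probe sets, and 3 and 15 and 1 larger on single probe sets. A second quantile normalization gave 4 and 12, 1 larger for TRIF KO and 7 larger between knockouts, with 1 member called between knockouts.

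Leaving out each array in turn gave 7 to 46 higher and 0 to 2 lower at 1 h with 0 members, 283 to 465 higher and 245 to 793 lower at 4 h with 4 to 5 members, 206 to 615 higher and 155 to 291 lower in MyD88 KO with 2 members, 46 to 177 higher and 22 to 66 lower in TRIF KO with 0 members, and 44 to 139 higher and 59 to 190 lower between knockouts with 1 to 4 members. Late calls were 1 to 14 larger and 8 to 27 smaller for MyD88 KO, 0 to 4 and 17 to 23 for TRIF KO, and 5 to 11 and 0 to 1 between knockouts, with 0 members in each.

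The additive fit already compares times within genotypes and genotypes within times, and the fit without the other factor drops this block. No further pairing by replicate number was made, since each group has 1 array. A late response could not be fitted for a genotype without its 4 h array. The fit without the other factor was made for the time and genotype comparisons alone. The cause of these changes was not tested. With 1 array per group, differences of the late response have wide intervals.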
